A study of Mus musculus with 24 samples.

Results

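Organoids grown from the mouse small intestine, in which the Cdk19 gene had been targeted with Cas9, were compared with wild-type (WT) organoids by RNA sequencing. The comparison uses the 3 libraries titled CDK19-KO and the 3 titled WT, 6 of the 24 libraries of the series, chosen by their titles. An organoid is a cluster of intestinal epithelium that keeps dividing in culture, with stem cells in buds that resemble crypts and their differentiated progeny around a lumen. Per the methods of the study, Cdk19 was mutated with a lentivirus that carried Cas9, a guide RNA against exon 1 and puromycin resistance, after which single organoids were picked and expanded. The sources do not say whether the 3 libraries labelled CDK19-KO come from 1 clone or from several, and the WT organoids are not described as having passed through virus, drug or clone picking, so a change in the targeted libraries cannot be told apart from an effect of these steps. Organoids of both groups, like the CDK8-KO and Double-KO organoids of the same experiment, had 7 days of 600 nM 4-hydroxytamoxifen before RNA was taken. That drug activates the Cre recombinase of the conditional Cdk8 lines.

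CDK19 and its paralogue CDK8 are alternative catalytic subunits of the kinase module of Mediator, the large complex that links transcription factors bound at enhancers to RNA polymerase II. Each pairs with cyclin C and, together with MED12 and MED13 or their relatives, forms a module that binds Mediator reversibly and phosphorylates transcription factors. In the intestinal epithelium, Wnt signals keep Lgr5+ stem cells dividing at the crypt base, and their daughters become absorptive enterocytes or the secretory goblet, Paneth, enteroendocrine and tuft cells.

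The tables of the 6 libraries held 14636861 to 14778776 reads counted on genes each, and 21197 to 21828 genes with at least 1 count. The other 64.7 to 65.2% of all reads were unmapped, mapped to several places or lay on no single gene of the counted strand. The median gene had 49.8 to 50% of its stranded counts there, which is what unstranded libraries give, and values of genes that overlap on opposite strands and of close paralogues (Oas1a and Oas1b, Slc6a20a and Slc6a20b, Apol9a) are uncertain. The labels name both small intestinal organoids and 4T1, a mammary tumour line. The basal mammary keratin Krt5 had 0 counts in all 6 libraries and Krt14 at most 2, whereas the 10 genes listed for intestinal epithelium, including Epcam, Cdx2 and Hnf4a, were all measured, with 154500 to 198700 normalised counts together in each library. That list was also lower in part of the libraries labelled CDK19-KO. Its log2 fold changes were negative for 9 of 10 genes, with 3 lower at an unadjusted p under 0.05 (background 5.76%). In each of replicates 2 and 3, 9 of 10 genes were below every WT library, as were 36.3 and 36.0% of all genes. In replicate 1, 2 were below and 4 above every WT library, as were 31.0 and 31.9% of all genes. The median relative to the WT mean was 0.04 in replicate 1, −0.25 in replicate 2 and −0.21 in replicate 3. Xist was at 16320 to 20450 normalised counts in every library and 4 genes of the Y chromosome had no count. Normalised counts are counts scaled by the TMM factors of edgeR, and log2 fold changes compare the libraries labelled CDK19-KO with WT and carry a standard error (SE).

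The targeted gene was examined first. Cdk19 (chromosome 10, 40339564 to 40483818, GRCm38, plus strand) has its start codon in exon 1, the exon the guide was directed to. The coding part of that exon (chr10:40349594-40349721), from the GENCODE vM21 transcript of 13 exons, is shown to give the stretch in which a mutation was sought, with the start codon in capitals.
Cdk19 exon 1, coding part: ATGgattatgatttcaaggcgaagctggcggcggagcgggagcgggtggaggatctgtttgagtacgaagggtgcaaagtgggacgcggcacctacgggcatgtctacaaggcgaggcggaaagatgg
Exon 1 makes up 7.13% of this transcript of 5807 bases, and the deposited counts sum reads over all exons, so they do not show whether these bases were altered. None of the 5758 stretches of 50 bases in it, the read length, occurs in a Cdk8 transcript (0 of 5758), so reads of the paralogue are not expected among its counts.

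Cdk19 RNA was lower in 2 of the 3 libraries labelled CDK19-KO and at the WT level in the other. It had 711, 749 and 726 normalised counts in WT replicates 1, 2 and 3, and 729, 420.1 and 422 in the libraries labelled CDK19-KO replicates 1, 2 and 3. Replicate 1 lay within the range of WT and replicates 2 and 3 below it, so the groups overlapped. The log2 fold change was −0.48 (SE 0.268, edgeR adjusted p = 0.576), and without replicate 1 it was −0.78 (SE 0.256, adjusted p = 0.148). The study checked its organoid lines by DNA sequencing, quantitative PCR and Western blot, which were not analysed here, and the library labelled CDK19-KO replicate 1 is kept under its label.

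The other subunits of the kinase module differed little. Cdk8, the paralogue, had 635, 646 and 534 normalised counts in WT, compared with 694, 694 and 726 in the libraries labelled CDK19-KO, which were all higher than WT (log2 fold change 0.22, SE 0.114, adjusted p = 0.530). Med12, which activates the kinase, stood at 946, 958 and 1009 in WT and at 1078, 1037 and 1129 in the libraries labelled CDK19-KO (log2 fold change 0.16, adjusted p = 0.526). Both genes had groups that do not overlap, as 9.13% of all genes had in this direction, and neither passed the test. Ccnc, which encodes cyclin C, was at 427, 408 and 438 against 383, 422 and 339 (log2 fold change −0.16, SE 0.0955, adjusted p = 0.619). Med13 and its paralogue Med13l, which tether the module to Mediator, had log2 fold changes of 0.02 and 0.22. Relative to the WT mean, Med13 was at −0.30, 0.22 and 0.10 in replicates 1, 2 and 3, and Med13l at 0.01, 0.36 and 0.27. Med12l had at most 4 counts in a library and was not tested. None of the 26 core Mediator subunits and none of the 9 other transcriptional kinase genes, Cdk9 among them, had an unadjusted p under 0.05, where 5.08% of all genes were higher and 5.76% lower at that level. Of 22 tested genes within 1 Mb of Cdk19, 0 had an unadjusted p under 0.05 with edgeR, and their log2 fold changes ran from −1.20 to 1.14. Without replicate 1, Fyn (1.61), Wasf1 (0.94) and Rev3l (0.43) were higher and Mfsd4b3 (−0.71) and Slc16a10 (−0.43) lower at that level. In that fit 7.19% of all genes were higher and 8.35% lower.

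**Figure D1:**
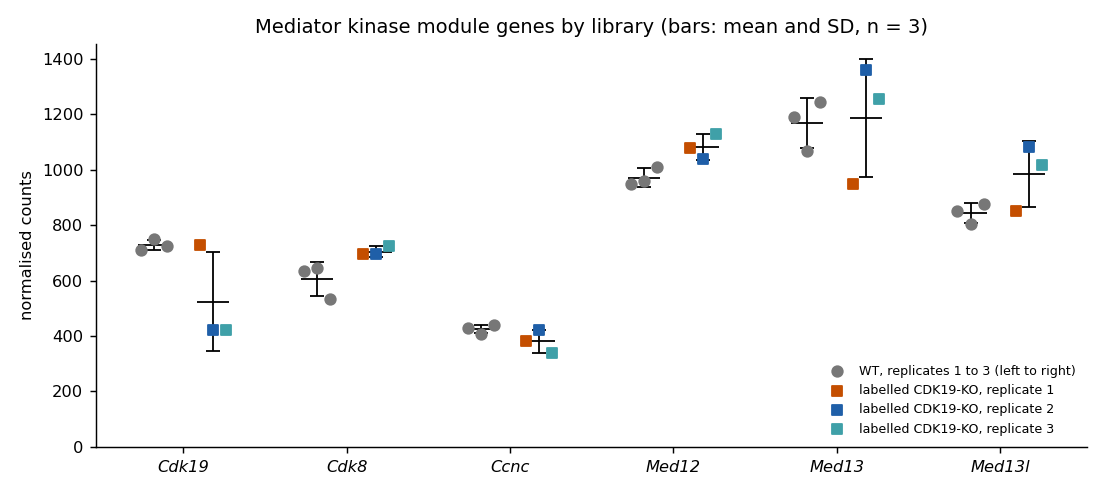
Normalised counts (vertical axis, from 0) of 6 kinase module genes in the WT libraries (grey circles) and in the libraries labelled CDK19-KO (coloured squares), with the mean and SD of each group of 3. For Cdk19, replicate 1 (729) sits among the WT libraries and replicates 2 and 3 (420.1 and 422) below them, while for Cdk8 all 3 sit above WT.

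The libraries labelled CDK19-KO do not form a single group. Among 12052 genes that averaged 50 or more normalised counts, replicates 2 and 3 differed by more than 2-fold in 54 genes, whereas replicate 1 differed from replicate 2 in 322 and from replicate 3 in 330. Replicate 1 was nearer to WT replicate 1 (194 genes) than to its own group. WT also divides, since replicates 1 and 2 differed in 8 genes and WT replicate 3 differed from them in 167 and 191. No pair was a duplicate, the closest, WT replicates 1 and 2, having a chi-square of 2.54 per gene where counting error alone gives about 1.

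A whole chromosome separated the libraries. Genes of chromosome 19 had a median log2 ratio to the WT mean of 0.50 in replicate 2 and 0.52 in replicate 3, but 0.03 in replicate 1. Medians of the other autosomes and of X lay between −0.06 and 0.01 in replicates 2 and 3 and between −0.07 and 0.06 in replicate 1, and the 6 libraries of the CDK8-KO and Double-KO lines had chromosome 19 medians of −0.04 to 0.09. Of its genes with at least 50 normalised counts, 86.3% in replicate 2 and 88.4% in replicate 3 were above all 3 WT libraries, compared with 22.9 to 31.7% and 23.6 to 31.8% on the other autosomes and X. In replicate 1 the share was 39.0%, within the 22.1 to 42.1% of the other autosomes and X in that library. This chromosome was singled out after the values were seen, so no test is given. The difference ran along the whole length, as medians of the 13 bins of 5 Mb were 0.45 to 0.65 in replicate 2, 0.40 to 0.63 in replicate 3 and −0.22 to 0.11 in replicate 1. WT replicate 3 departed over a shorter stretch, with a median of −0.62 relative to the median of the 6 libraries over 73 genes of chromosome 16 beyond 80 Mb, where the other libraries were between −0.01 and 0.06. DNA was not measured, and what produced these levels was not tested.

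**Figure D2:**
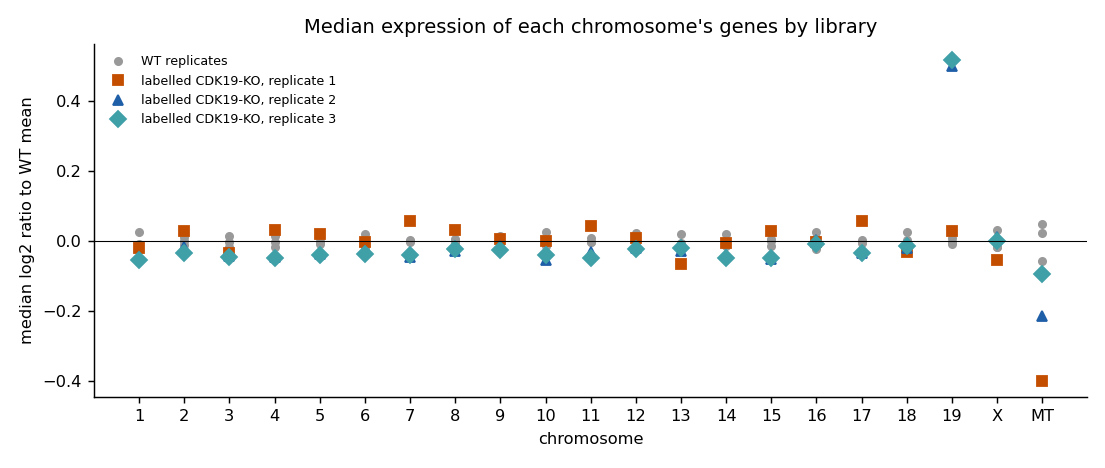
Median log2 ratio to the WT mean (vertical axis) of the genes of each chromosome (horizontal axis, MT for mitochondrial) with at least 50 normalised counts, for the WT libraries (grey) and each library labelled CDK19-KO (coloured). Replicates 2 and 3 reach 0.50 and 0.52 on chromosome 19 and replicate 1 does not, while the mitochondrial genes lie below WT in all 3.

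**Figure D3:**
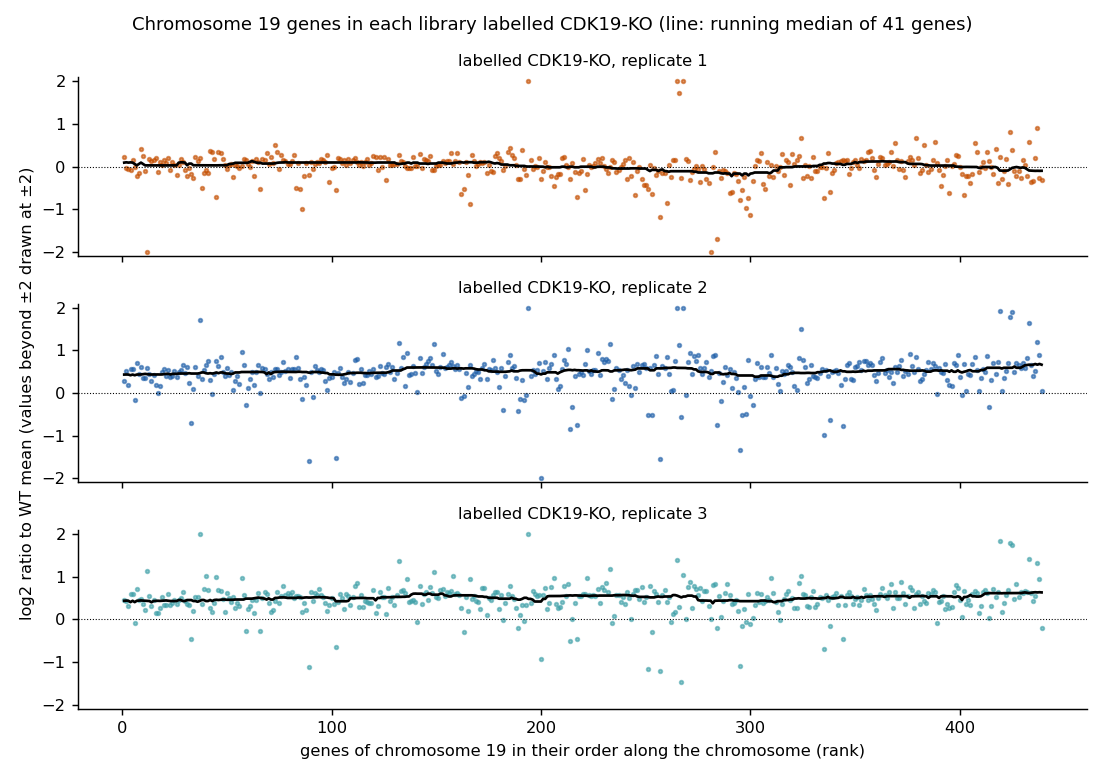
Log2 ratio to the WT mean (vertical axis) of 439 genes of chromosome 19 in their order along it (horizontal axis, rank), 1 panel for each library labelled CDK19-KO, with the running median of 41 genes in black. The line stays near 0 in replicate 1 and near 0.5 from end to end in replicates 2 and 3.

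Across all genes, the test depended on these libraries. With edgeR, 0 of 15602 genes (0%) were called deregulated at an adjusted p under 0.05, and 1691 had an unadjusted p under 0.05, 793 higher (5.08%) and 898 lower (5.76%). Groups that do not overlap were found for 1425 genes higher (9.13%) and 1692 lower (10.8%) in the libraries labelled CDK19-KO. DESeq2, which the study used, called 309 genes with its Wald test, 158 higher (1.02%) and 151 lower (0.979%). Without replicate 1, edgeR called 521 genes, 282 higher (1.77%) and 239 lower (1.50%). Chromosome 19 held 195 of those 282 higher genes and 2 of the 239 lower ones, leaving 87 higher and 237 lower elsewhere. In the full comparison it held 242 of the 793 higher genes (44.6% of its 542 tested genes, against 3.66% of all other genes) and 67 of the 158 that DESeq2 called higher. Any gene of chromosome 19 named below is marked as such.

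Interferon-stimulated genes were higher in the libraries labelled CDK19-KO. All 36 genes of this list, which type I and III interferons induce, had a positive log2 fold change, 29 had an unadjusted p under 0.05 (background 5.08%) and 23 had groups that do not overlap (background 9.13%). The median of the list was 2.03, against −0.02 over all genes tested. DESeq2 called 22 of them higher, as it did 1.02% of all genes. With edgeR 0 were called, the smallest adjusted p being 0.0969. Of the 36 genes, 4 lie on chromosome 19.

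To show the core of the interferon-stimulated response element, 2 promoters of the list that hold it are given, each from 250 bases before to 50 after the gene start (RefSeq, GRCm38.p6, minus strand, written along the gene). The capitals mark GAAANNGAAA, which is found within that element. Isg15 spans chr4:156200769-156201068 and Oas3 spans chr5:120777610-120777909.
Isg15: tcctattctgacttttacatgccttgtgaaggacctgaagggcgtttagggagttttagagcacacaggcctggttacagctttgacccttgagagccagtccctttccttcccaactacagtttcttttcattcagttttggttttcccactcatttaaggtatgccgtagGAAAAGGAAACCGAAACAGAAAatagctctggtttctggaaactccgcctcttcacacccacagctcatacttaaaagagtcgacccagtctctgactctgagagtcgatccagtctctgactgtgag
Oas3: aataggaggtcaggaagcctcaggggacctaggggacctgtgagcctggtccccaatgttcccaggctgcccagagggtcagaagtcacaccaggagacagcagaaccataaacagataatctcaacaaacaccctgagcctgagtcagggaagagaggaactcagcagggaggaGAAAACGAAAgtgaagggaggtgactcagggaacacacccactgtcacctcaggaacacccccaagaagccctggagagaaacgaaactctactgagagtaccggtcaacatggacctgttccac
The motif, searched on both strands as GAAANNGAAA or TTTCNNTTTC, was present in 14 of the 26 listed genes that have a promoter in the table (53.8%) and in 1079 of all 27025 genes (3.99%). In Isg15 it occurs 3 times in an overlapping run and in Oas3 once. A match describes the letters and not binding.

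Oas2, an oligoadenylate synthetase that activates RNase L upon double-stranded RNA, had 5.03, 13.4 and 7.31 normalised counts in WT, compared with 1645, 665 and 143 in the libraries labelled CDK19-KO. Every targeted library was above every WT library, in the order replicate 1, replicate 2, replicate 3 (log2 fold change 6.56, SE 1.12, adjusted p = 0.0969). Ifi44, a gene induced by type I interferon, went from 1.01, 5.13 and 3.13 in WT to 1005, 215 and 39.5 (7.03, SE 1.43, adjusted p = 0.122). Isg15, whose promoter is shown above and whose product is a ubiquitin-like modifier, was at 13.1, 11.3 and 8.35 in WT and at 270.0, 97.2 and 36.5 (3.61, SE 0.952, adjusted p = 0.181). The same order held for Oas3, with 21.1, 22.6 and 12.5 in WT, compared with 1083, 355 and 102 in the libraries labelled CDK19-KO (4.76, SE 1.05, adjusted p = 0.138).

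Oasl2, which encodes an oligoadenylate synthetase-like protein, was measured at a higher level, with 123, 159 and 59.5 in WT and 3130, 1523 and 498 in the targeted libraries (3.91, SE 0.821, adjusted p = 0.129). Mx2, an interferon-induced GTPase gene that GENCODE does not class as protein-coding, had 13.1, 7.19 and 7.31 against 166, 112 and 20.7 (3.42, SE 0.700, adjusted p = 0.122). It lies on chromosome 16 beyond 80 Mb, the part that was low in WT replicate 3. There 10 of 92 tested genes were higher and 1 lower at an unadjusted p under 0.05 (background 5.08% and 5.76%). Of protein-coding genes with a mean of 50 normalised counts, groups apart and an unadjusted p under 0.05, the 10 with the largest positive log2 fold change are all known interferon-induced genes, among them Ifi27l2a (7.29), Usp18 (5.07), which encodes the protease that removes ISG15, Apol9a (4.36), Trim30a (4.15) and Ifit3 (3.69, on chromosome 19). Without replicate 1 these 5 values were 5.76, 3.85, 3.17, 2.91 and 2.39, in the same order. Over the list, the level was highest in replicate 1 for 35 of 36 genes, and 34 followed the order replicate 1, 2, 3.

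The interferon-stimulated genes were thus highest in the library whose Cdk19 and chromosome 19 levels were those of WT. The median log2 ratio of the list to the WT mean was 2.83 in replicate 1, 1.49 in replicate 2 and 0.51 in replicate 3, with 35, 34 and 23 of the 36 genes above all WT libraries, where 31.9, 28.8 and 28.1% of all genes were. Without replicate 1 the median log2 fold change was 1.07, with 22 genes higher at an unadjusted p under 0.05 (7.19% of all genes in that fit) and 2 called (1.77% of all genes). Of 22 interferon genes, examined after the values were seen, 18 had no count and the highest count was 2 (Ifnl3). The 6 interferon receptor genes had log2 fold changes between −0.21 and 0.35, with 4 of them on the part of chromosome 16 that was low in WT replicate 3. Immune cell markers had 0 of 4 tested genes at an unadjusted p under 0.05 with edgeR. Their summed level was 212 to 261 normalised counts in WT, compared with 196 to 230 in the libraries labelled CDK19-KO, and Cd4 and Cd8a had no count.

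**Figure D4:**
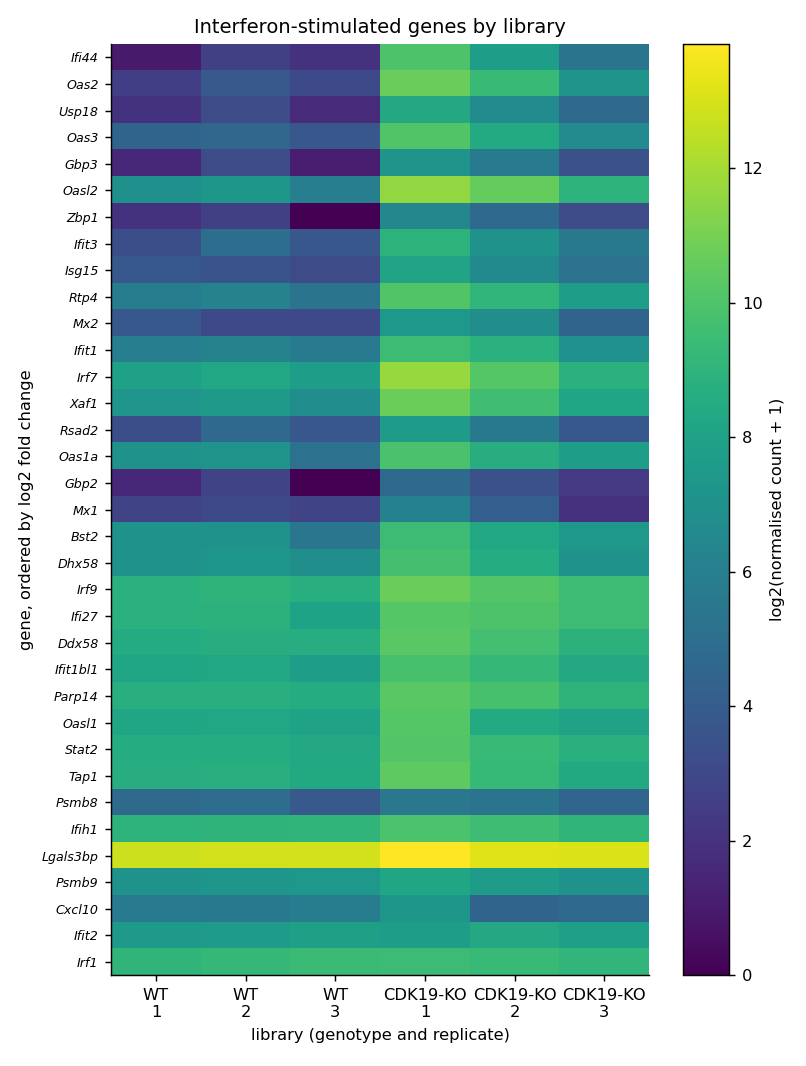
Heat map of 35 of the 36 interferon-stimulated genes (rows, ordered by log2 fold change) in the 6 libraries (columns), coloured by log2 of the normalised count plus 1. The columns labelled CDK19-KO brighten from replicate 3 to replicate 1, as for Oas2 with 143, 665 and 1645 normalised counts against at most 13.4 in WT.

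Stem cell genes were higher in the libraries labelled CDK19-KO. All 12 listed genes had a positive log2 fold change (median 0.38), 6 with an unadjusted p under 0.05 (background 5.08%). DESeq2 called 4 of the 12 higher, as it did 1.02% of all genes. None of the 12 lies on chromosome 19. In RNA from whole organoids, more cells of a type and more RNA in each such cell cannot be told apart, here and for the other lineages below. Axin2, a direct Wnt target that feeds back on the pathway, had 3811, 3695 and 3663 normalised counts in WT, compared with 4449, 5111 and 5317 in the targeted libraries (log2 fold change 0.41, SE 0.0978, adjusted p = 0.154). Lgr5, the receptor for R-spondin that marks these cells, was at 6022, 6039 and 5596 against 7453, 8675 and 8861 (0.50, SE 0.146, adjusted p = 0.204). In both genes all 3 targeted libraries were above WT.

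Replicates 2 and 3 carried the larger part of this difference. Olfm4, a secreted glycoprotein of crypt base columnar cells, had 26220, 24400 and 21950 normalised counts in WT, 30280 in replicate 1, and 55820 and 45930 in replicates 2 and 3 (0.86, SE 0.226, adjusted p = 0.18). Tnfrsf19, also called Troy, was at 146, 124 and 102 in WT and at 139 in replicate 1, with 765 and 533 in the other two (1.95, SE 0.466, adjusted p = 0.155). Without replicate 1 the log2 fold changes of these genes were 1.09 and 2.40, and edgeR called 3 of the 12 stem cell genes, where it called 1.77% of all genes higher. Wnt targets, which share Lgr5, Axin2, Tnfrsf19 and others with that list, had 15 of 19 genes positive (median 0.23, with 45.9% positive among all genes) and 7 higher at an unadjusted p under 0.05 (background 5.08%), among them Prox1, a transcription factor with 214, 194 and 248 normalised counts in WT, compared with 346, 443 and 387 in the targeted libraries (0.84, SE 0.185, adjusted p = 0.138). Of the 19 proliferation genes 0 had an unadjusted p under 0.05 with edgeR and the median was −0.05. Ccna2, Ccnb2 and Ccne2, cyclins of S phase and mitosis, had log2 fold changes of −0.06, 0.12 and −0.11.

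Enterocyte genes were lower. Of 22 genes 20 had a negative log2 fold change (median −0.60), 10 with an unadjusted p under 0.05 (background 5.76%). Groups did not overlap in this direction for 12 (background 10.8%). DESeq2 called 7 of the 22 lower, as it did 0.979% of all genes. Mep1b, a brush border metalloprotease, had 2148, 2413 and 2139 normalised counts in WT, compared with 1372, 876 and 1069 in the libraries labelled CDK19-KO (−1.01, SE 0.170, adjusted p = 0.0969). Slc2a2, the basolateral glucose transporter GLUT2, was at 2061, 2186 and 2375 against 1526, 994 and 1239 (−0.82, SE 0.171, adjusted p = 0.129). Slc15a1, which takes up small peptides, was at 477, 584 and 425 against 235, 207 and 304 (−0.99, SE 0.235, adjusted p = 0.154). Each of the 3 targeted libraries was below each WT library for these genes, and the median of the list relative to the WT mean was −0.27 in replicate 1, −1.01 in replicate 2 and −0.70 in replicate 3. Without replicate 1, edgeR called 9 of the 22, and 1.50% of all genes, lower. The intestinal identity genes, described above, were lower in the same 2 libraries.

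The ileal, xenobiotic, fatty acid oxidation and proximal lists also had lower members at an unadjusted p under 0.05. Slc51a, a subunit of the basolateral bile acid exporter, had 861, 968 and 868 normalised counts in WT, compared with 665, 396 and 562 in the targeted libraries (−0.73, SE 0.165, adjusted p = 0.146), and its partner Slc51b had 48.3, 48.3 and 29.2 against 23.2, 11.7 and 10.9 (−1.46, SE 0.388, adjusted p = 0.183). These were 2 of the 4 ileal genes tested (background 5.76%). Fabp6 and Cubn, also listed as ileal, had at most 1 and 8 counts in a library and were not tested. Slc51a and Slc51b were lower in every targeted library. In the xenobiotic list 4 of 12 genes were lower at an unadjusted p under 0.05 (background 5.76%) and 1 was higher (background 5.08%). The lower ones were Cyp3a11 (−0.80, SE 0.172) and Cyp3a13 (−0.62, SE 0.185), cytochromes that oxidise drugs, Srxn1 (−0.53, SE 0.149), which repairs oxidised peroxiredoxins, and Gclc (−0.25), an enzyme of glutathione synthesis. The higher one was the cytochrome Cyp1b1, with 2.01, 6.16 and 13.6 normalised counts in WT against 12.1, 28.2 and 31.6 (1.72, SE 0.592), where replicate 1 was below WT replicate 3. Cyp1a1, a target of the aryl hydrocarbon receptor, was barely detected, with 1.01, 1.03 and 0 in WT and 7.05, 5.83 and 2.96 in the targeted libraries, which were all higher (adjusted p = 0.469), and its fitted fold change depends on the prior count. In the list of fatty acid oxidation 3 of 13 were lower, among them Cyp4a10 (−1.34, SE 0.389) and Ehhadh (−0.24, SE 0.0977), whose enzymes act in omega and peroxisomal oxidation. Lct, the lactase gene, was the single gene of the proximal list at that level, with 1756, 1930 and 917 normalised counts in WT, compared with 972, 224 and 329 in the targeted libraries (−1.59, SE 0.514), where replicate 1 exceeded WT replicate 3 and the value without replicate 1 was −2.46.

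Goblet cell genes were lower mainly in replicates 2 and 3. All 10 listed genes had a negative log2 fold change (median −0.43, where 45.9% of all genes were positive), 4 with an unadjusted p under 0.05 (background 5.76%), and relative to the WT mean the median was 0.05 in replicate 1 and −0.71 and −0.70 in replicates 2 and 3, where 10 of 10 genes were below every WT library, as were 36.3 and 36.0% of all genes. Muc2, the gel-forming mucin of intestinal mucus, had 2132, 2416 and 2286 normalised counts in WT, compared with 1589, 1186 and 1384 in the libraries labelled CDK19-KO (−0.72, SE 0.164, adjusted p = 0.152). Zg16, a lectin of the mucus layer, was at 1110, 1201 and 2540 against 608, 536 and 431 (−1.62, SE 0.311, adjusted p = 0.107). Clca1, a metalloprotease that cleaves MUC2, was at 2372, 2612 and 4569 against 1894, 1003 and 869.7 (−1.34, SE 0.427, adjusted p = 0.244). All 3 genes were lower in every targeted library, and WT replicate 3 was the highest WT library for Zg16 and Clca1. Among 17 mucus production genes, Gcnt3, which branches O-glycans, also had an unadjusted p under 0.05 (−0.45, SE 0.196), but its replicate 1 was at the WT level, with 2280, 2496 and 2764 normalised counts in WT against 2492, 1556 and 1457, and without that library its value was −0.72. None of the 5 membrane mucins tested in the list reached that level. Muc3 and Muc13 had log2 fold changes of −0.32 and −0.12, Muc3a and Muc4 of 0.22 and 0.05, and Muc1, at low counts, was higher in every targeted library, with 2.01, 2.05 and 8.35 against 11.1, 8.75 and 13.8 (1.42, SE 0.714).

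**Figure D5:**
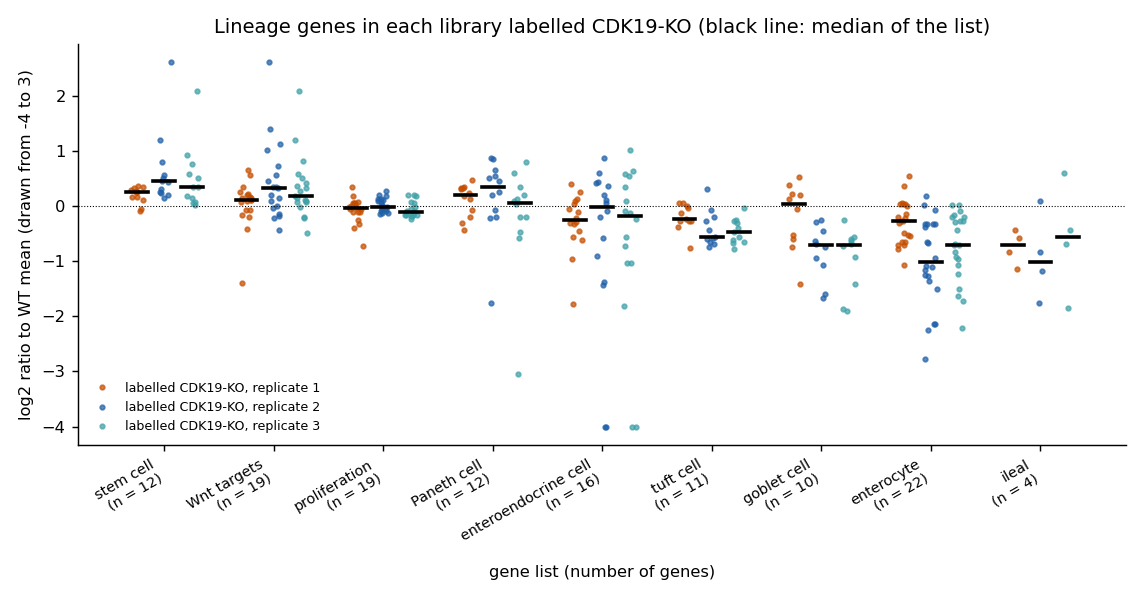
Log2 ratio to the WT mean (vertical axis, drawn from −4 to 3) of the genes of 9 lists (horizontal axis), as a point for each gene in each library labelled CDK19-KO, with the median of the list as a black line. Stem cell medians lie above 0 in all 3 libraries (0.26, 0.45 and 0.34), enterocyte medians below it (−0.27, −1.01 and −0.70), and the goblet medians of replicates 2 and 3 (−0.71 and −0.70) below that of replicate 1 (0.05).

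Other secretory lineages were mixed. Of 16 enteroendocrine genes, Neurog3, the transcription factor that commits cells to this fate, was higher, at 1276, 1077 and 1366 normalised counts in WT, compared with 1644, 2264 and 2514 in the targeted libraries (0.79, SE 0.204, adjusted p = 0.174). Sct, the hormone secretin, was lower, with 57.3, 84.2 and 20.9 against 15.1, 19.4 and 14.8 (−1.71, SE 0.553, adjusted p = 0.248). Gcg, which encodes glucagon-like peptides, spread over the libraries of both groups, from 102 to 1248 in WT and from 29.2 to 468 in the targeted libraries, so the groups overlapped. Tuft cell genes had a median of −0.40 with 10 of 11 negative and 0 at an unadjusted p under 0.05 with edgeR, WT replicate 3 being as low as the targeted libraries (median −0.49 relative to the WT mean). Of 12 Paneth cell genes 2 were higher at that level (background 5.08%), Clps (0.47, SE 0.183) and Habp2 (0.62, SE 0.234), the latter on chromosome 19.

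Genes of ion and fluid secretion were found on both sides. Cftr, the chloride channel, had 3716, 3615 and 2130 normalised counts in WT, compared with 3501, 3925 and 3991 in the libraries labelled CDK19-KO, so the groups overlapped (0.27, SE 0.198, adjusted p = 0.707). The anion exchangers Slc26a6 (−0.46, SE 0.137) and Slc26a3 (−0.54, SE 0.208) were lower and Kcnq1, the channel that recycles potassium, was higher (0.32, SE 0.0955) at an unadjusted p under 0.05. They belong to 1 higher (background 5.08%) and 4 lower (background 5.76%) genes of 11.

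Some inflammatory and stress genes were lower at an unadjusted p under 0.05, a level that 5.76% of all genes reached in this direction, and none passed the adjusted test of edgeR. Nos2, inducible nitric oxide synthase, had 355, 368 and 266 normalised counts in WT, compared with 209.6, 75.8 and 81.0 in the targeted libraries (−1.43, SE 0.479, adjusted p = 0.264). With Duox2 (−1.25, SE 0.420), which makes hydrogen peroxide at the cell surface, and Tnf (−0.74, SE 0.322) it made up 3 of 9 NF-kB genes at an unadjusted p under 0.05, all lower. Pigr, the receptor that carries IgA across the epithelium (−0.27, SE 0.103), and Reg3b, a bactericidal lectin (−1.49, SE 0.624), were 2 of 8 antimicrobial genes at that level. Chac1 (−1.24, SE 0.305) and Slc7a11 (−0.71, SE 0.301), both targets of ATF4, were 2 of 14 stress response genes, and Chac1 was at 75.6 in replicate 1 and at 32.1 and 31.6 in replicates 2 and 3, against 96.6 to 123 in WT. The 6 mitochondrially encoded genes tested were all lower (median −0.25), 3 of them at that level, and mt-Cytb had 207600, 217300 and 223300 normalised counts in WT, compared with 174400, 173900 and 182300 in the targeted libraries (−0.29, SE 0.106).

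Other lists had between 0 and 3 genes at an unadjusted p under 0.05 (background 5.08% higher and 5.76% lower). Of 20 p53 targets 1 was lower at an unadjusted p under 0.05, Sesn1 (−0.24, SE 0.102), with Cdkn1a at −0.17, Ccng1 at −0.01 and Trp53 itself at 0.02. Of 18 genes of Myc and ribosome biogenesis 3 were higher, Polr1a (0.28, SE 0.125) and, on chromosome 19, Rrp12 (0.39, SE 0.140) and Nolc1 (0.38, SE 0.169), and Myc was at 0.09. All 20 cholesterol synthesis genes had a negative value (median −0.28), 8 had groups that do not overlap in this direction (background 10.8%), and 1 was at that level, Stard4 (−0.26, SE 0.115). In the YAP and regenerative list Areg, a ligand of the EGF receptor, was lower (−0.70, SE 0.284), 1 of 8, with 609.5, 623 and 695 normalised counts in WT, 578 in replicate 1, and 295 and 317 in replicates 2 and 3, and its value was −1.06 without replicate 1. The 12 immediate early and 11 hypoxia genes had 0 at that level with edgeR and 0 called with DESeq2. Without replicate 1, 6 of 20 p53 targets and 3 of 12 immediate early genes were lower at an unadjusted p under 0.05, as were 8.35% of all genes in that fit.

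By the smallest p-value among protein-coding genes whose groups do not overlap and whose mean was 50 normalised counts or more, the higher genes were led by Gif and Adra2a, both on chromosome 19, and include Oas2, given above. Gif, gastric intrinsic factor, had 15.1, 9.24 and 6.26 normalised counts in WT, compared with 116, 179.9 and 52.3 in the libraries labelled CDK19-KO (log2 fold change 3.49, SE 0.501, adjusted p = 0.0763), including replicate 1, in which chromosome 19 as a whole was at the WT level. Adra2a, an adrenergic receptor, had 968, 952 and 989.6 against 1425, 1742 and 1550 (0.70, SE 0.111, adjusted p = 0.0963). Outside that chromosome, Fgfr3, a growth factor receptor of the crypt, had 469.7, 481 and 474 in WT and 625, 743 and 702 in the targeted libraries (0.54, SE 0.0942, adjusted p = 0.0969), and Dmpk, a kinase, had 432, 368 and 440.5 against 645, 697 and 732 (0.74, SE 0.132, adjusted p = 0.0969). The rule admits only groups apart, so in these 4 genes replicate 1 is on the side of replicates 2 and 3 by selection.

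By the same rule, the lower genes of smallest p were Slc6a20a, Mep1b, Slc6a20b, Mrc1 and Cmbl. Slc6a20a, a proline transporter, had 3852, 4199 and 4282 normalised counts in WT, compared with 2424, 1466 and 1823 in the targeted libraries (−1.11, SE 0.182, adjusted p = 0.0969), and its paralogue Slc6a20b had 1164, 1178 and 1095 against 775, 714 and 801 (−0.59, SE 0.0999, adjusted p = 0.0969). Mrc1, known as a mannose receptor of macrophages, had 76.4, 80.1 and 68.9 against 32.2, 27.2 and 25.7 (−1.40, SE 0.240). Cmbl, a hydrolase that activates prodrugs, had 1330, 1352 and 1277 against 1006, 872 and 920.0 (−0.50, SE 0.0862). All 5 had groups apart, as the rule requires. Among protein-coding genes with a mean of 50 normalised counts, groups apart and an unadjusted p under 0.05, the most negative values were those of Smoc1 (−4.95, SE 0.970) and S100a6 (−3.75, SE 0.766), but WT replicate 3 was low as well: Smoc1 had 158, 183 and 7.31 in WT and 5.04, 1.95 and 3.95 in the targeted libraries, and S100a6 had 1295, 1341 and 229 against 102, 52.5 and 59.2. The next 8 most negative values were those of Cfap74 (−2.85), Igsf9b (−2.68), Cyp2j5 (−2.43), Casd1 (−2.37), the tyrosine kinase Syk (−2.22), Itih5 (−1.98), the cation exporter Slc47a1 (−1.95) and Pck1 (−1.80), which encodes the gluconeogenic enzyme PEPCK. Single libraries weigh on several of these. Igsf9b had 44.3 normalised counts in replicate 1 and 0 in replicates 2 and 3, against 54.4 to 142 in WT, and Casd1 had 112 in replicate 1 and 3.89 and 12.8 in the other two, with a value of −4.69 without replicate 1. Cfap74 had 35.2, 33.9 and 206 in WT, so that WT replicate 3 set its mean, and 25.2, 8.75 and 3.95 in the targeted libraries.

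Some genes were nearly silent in part of the libraries, a pattern looked for after the values were seen. With at least 50 normalised counts on average in WT, 6 genes had at most 3 counts in replicates 2 and 3 but more in replicate 1, 2 had at most 3 in replicate 1 alone, and 2, Itpripl2 and Pm20d1, had at most 3 in all 3 targeted libraries. Itpripl2 had 101 and 170 in WT replicates 1 and 2, but 3.13 in WT replicate 3, and 3.02, 0 and 0 in the targeted libraries, and Pm20d1 was likewise at 0 in WT replicate 3. In the opposite direction, 0 genes had at most 3 counts in every WT library and at least 50 normalised counts in all 3 targeted libraries, or in both replicates 2 and 3. For replicate 1 the count was 1 gene, Apol9b, at 175, 76.8 and 16.8 in replicates 1, 2 and 3. Among genes that are not protein-coding, Gm43305 had 8095, 6840 and 10790 normalised counts in WT, compared with 3392, 4260 and 4109 in the libraries labelled CDK19-KO (−1.13, SE 0.164, adjusted p = 0.0763), and at most 1 in each CDK8-KO and Double-KO library, so it also separates the lines. By the rule of size, Zfp783 (1.84) and Oas1b (1.72) had the largest positive values of this kind beside Mx2, and Gm37233 (−1.96, and −5.03 without replicate 1, which had 83.6 normalised counts against 1.95 and 4.94), Gm11651 (−1.23) and Gm48780 (−1.15) the most negative.

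The libraries labelled Double-KO, for both kinases, can be set against those labelled CDK8-KO, and this comparison shares no library with the one above. Cdk19 itself was at 702, 646 and 582 normalised counts in CDK8-KO and at 403, 356 and 773 in Double-KO, whose replicate 3 was at or above the WT level. There the median log2 fold change was −0.04 for the interferon-stimulated genes, with 15 of 36 positive, against 2.03 for CDK19-KO and WT. It was −0.36 for stem cell genes (0 of 12 positive) against 0.38, and 0.54 for enterocyte genes (22 of 22 positive) against −0.60, while over all genes it was −0.01 and −0.02. Neither direction was particular to these lists. For Double-KO against CDK8-KO, 0 of 19 proliferation (median −0.43), 0 of 16 enteroendocrine (−0.32) and 0 of 11 tuft cell genes (−0.92) were positive. Of 20 p53 targets 18 were positive there (0.11). The difference between the 2 comparisons, tested as an interaction, passed an adjusted p of 0.05 with edgeR for 4 of 15602 genes, with 2269 at an unadjusted p under 0.05 and 495 called by DESeq2. None of the 4 belongs to these lists. They include Fgfr3 and Sult1b1, a sulfotransferase with 2036, 2158 and 2139 normalised counts in WT, 1491, 1265 and 1572 in the libraries labelled CDK19-KO, 2182, 1887 and 2355 in CDK8-KO and 3522, 3313 and 2984 in Double-KO. Sult1b1 was thus lower in the libraries labelled CDK19-KO than in WT and higher in those labelled Double-KO than in those labelled CDK8-KO (interaction 1.16 on the log2 scale, SE 0.150, adjusted p = 0.0241).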

How the data were processed

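RNA of 12 genotype libraries, 3 each of WT, CDK8-KO, CDK19-KO and Double-KO organoids, entered a single model, and the 12 Senexin B libraries were not used. The authors sequenced polyadenylated RNA as single-end reads of 50 bp, aligned them to GRCm38.p6 with STAR (2.6.0c in the submitters' processing notes) and deposited raw counts per gene of Ensembl, unnormalised, for 54146 genes. The second strand column was used, and rows of totals that name no gene were left out. Counts were filtered with filterByExpr, scaled by TMM and fitted in edgeR 4.0.16 (R 4.3.3) for its quasi-likelihood test, with Benjamini-Hochberg adjustment over 15602 genes. DESeq2 1.42.0 was an alternative, and the others are given with their effect below. Scripts were tested on simulated data. Positions come from GENCODE vM21 (GRCm38), matched for 54079 genes. Figures used matplotlib 3.10.9.

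Members, gene lists and the rule for named genes were chosen with earlier results of these data known. The rule took the kinase module, genes the study names, the 3 list members of smallest p and, among protein-coding genes averaging 50 normalised counts, with an unadjusted p under 0.05 and groups apart, the 10 largest rises and falls and the 5 smallest p in each direction, plus 3 non-coding rises and falls. Gm43305, Gm21887, Cyp1a1, Cyp1b1, Gclc, Muc1, Muc3a, Muc4, Itpripl2, Pm20d1 and Apol9b were chosen after their values were seen. So were Fabp6, Cubn, the genes named near Cdk19, the chromosome 16 and 19 groupings and the interferon genes. Lists of fibroblast, endothelial, glial, erythroid and MHC class II genes had 7 genes tested in all, 0 at an unadjusted p under 0.05 with edgeR. The study describes the replicates of each genotype as biological, the labels do not say whether they are separate cultures or clones, and p-values measure the spread between these libraries. Some genes that these rules named are not reported here.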

Additional observations from a re-analysis of the deposited data

Results flagged for a closer look

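The difference between libraries labelled Double-KO and CDK8-KO was not the same as that between libraries labelled CDK19-KO and WT for 4 genes, by the interaction test of edgeR at an adjusted p under 0.05. Sult1b1 differed by 1.16 on the log2 scale and Fgfr3 by −0.98 (adjusted p = 0.0389), Fgfr3 having 304, 305 and 296 normalised counts in the CDK8-KO libraries and 197, 236 and 233 in Double-KO. Mmp14, a membrane matrix metalloprotease, differed by −5.47 (adjusted p = 0.0241), with 18.4, 0 and 2.9 normalised counts in Double-KO, 449, 302 and 521 in CDK8-KO and 510 to 1090 in the WT and CDK19-KO libraries, of which WT replicate 3 was the highest. Olfr1419, an olfactory receptor gene on chromosome 19, differed by −6.29 (adjusted p = 0.0241), with at most 1 normalised count in Double-KO. Values against libraries at or near 0 depend on the prior count of the fit. Groups of 3 libraries were not tested for outliers.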

How the results depend on the processing

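The count of genes called was 0, and 309 with DESeq2, 479 with no filter, 15 with the 6 libraries compared alone, 3 with the quasi-likelihood fit set to legacy = FALSE (Gif and Gm21887 higher, Gm43305 lower) and 23 with CDK19-KO replicates 2 and 3 both left out, a fit in which the 1 library left is assumed to vary like the other groups. Those settings with legacy = FALSE and with 2 replicates left out were chosen after seeing the data. Leaving out 1 WT or CDK19-KO library gave 0 to 521, with 521 without CDK19-KO replicate 1, 5 without WT replicate 3, 3 without CDK19-KO replicate 3 and 0 without each other WT or CDK19-KO library. The 1691 genes at an unadjusted p under 0.05 became 982 with CDK19-KO replicates 2 and 3 left out and 1036 to 2475 with 1 library left out, the lowest without CDK19-KO replicate 2. The log2 fold change of Cdk19 was −0.78 to −0.33 with 1 library left out and 0.0010 with replicates 2 and 3 left out. The 4 genes of the interaction became 495 with DESeq2, 566 with no filter, 0 with at least 10 counts in every library, 9 with the unstranded column, 7 with robust fitting, 2 with replicates 2 and 3 left out, and 0 to 467 with 1 library left out (467 without CDK19-KO replicate 1, 392 without CDK8-KO replicate 3, 71 and 42 without Double-KO replicates 2 and 3). Legacy quasi-likelihood is the default used. Among named genes Ccng1 changed sign with DESeq2 (0.0003) and with the 6 libraries alone (0.0090), Ccna2 with the unstranded column (0.016), and with 1 library left out Ccng1 ran from −0.044 to 0.031, Ccna2 from −0.093 to 0.0005, Ccne2 from −0.23 to 0.022, Trp53 from −0.014 to 0.069, Muc4 from −0.070 to 0.22 and Med13 from −0.079 to 0.18. The causes were not tested. The replicate number as a block gave 0 genes called, 1748 at an unadjusted p under 0.05, −0.49 for Cdk19 and 8 genes for the interaction. The numbers are shared labels only, since WT and CDK19-KO libraries of the same number had correlated deviations of −0.103, 0.00622 and −0.0465.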
